A study of Mus musculus with 27 samples.

Results

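Single formative pluripotent stem cells (fPSCs) were described here for 3 properties. These were how many genes were detected in a cell, which cell-cycle genes varied together from cell to cell, and which genes varied more than other genes of similar mean. All cells of 4 clones in both deposited count tables were taken, and a cell was kept when it had counts for 500 or more genes. This kept 181 of 182 cells. Of 16299 and 16176 genes listed in the tables, the 14176 present in both were used, and these held 99.7% of all counts.

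fPSCs are mouse cells that the study derived from embryonic stem cells through Epiblastoids, which are 3-dimensional colonies in Matrigel. They were kept in N2B27 medium with Activin A, bFgf2 and XAV939, an inhibitor of tankyrase that lowers Wnt signalling. The labels give a wild-type genotype and no treatment was compared, so the 4 clones were treated as replicates of 1 condition. The study describes them as independent clones of a single passage, and their parent line is not given in the sources used here. By the column names, clones 1 and 2 share one table and clones 3 and 4 the other, and all cells were picked by hand and made into cDNA with Smart-seq2.

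The formative state lies between the naive state of embryonic stem cells and the primed state of epiblast stem cells, and corresponds to the epiblast after implantation and before gastrulation. Pluripotent cells divide quickly, with a short G1 phase. In most cycling cells, genes of DNA replication (the G1/S programme) peak before genes of chromosome condensation, spindle assembly and cytokinesis (the G2/M programme), so that cells caught at different phases carry different sets of these transcripts. A measured correlation between genes across cells also holds counting noise, which lowers it. It also holds differences in the depth and quality of libraries, which can raise it for many genes at once.

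Each cell was reverse transcribed with a primer of its own that carries a cell barcode. The list holds 96 such primers with 96 different barcodes, and the first 2 are printed to show how a read was given to a cell. The capitals mark the 8-base barcode, the following 8 n are random bases and the run of t binds the poly(A) tail.
RT primer 1: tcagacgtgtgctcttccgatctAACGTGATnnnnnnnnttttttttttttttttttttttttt
RT primer 2: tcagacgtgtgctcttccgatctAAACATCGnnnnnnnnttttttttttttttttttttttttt
The same primers served both tables, and 86 cell numbers occur in both. Cells with the same number in both tables correlated no more (mean r 0.508 over 87 pairs) than cells with different numbers (0.506), and no 2 cells had identical counts. One column name of clone 3 is used for 2 different cells, both below the depth used for comparisons. Within a table, the clone cannot be told apart from the set of primer numbers used for it. Whether the deposited counts are of molecules or of reads is not stated.

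By the labels, 48 cells were picked from each clone, 192 in all, and the tables hold 46, 46, 46 and 44 columns. The removed cell, from clone 2, had 250 genes and 307 counts. The kept cell with the fewest genes, from clone 1, had 656 genes and 1125 counts. Totals of kept cells ran from 1125 to 722865 counts, with medians of 19078, 32356, 33883 and 22634 in clones 1 to 4. Median genes per cell were 3425, 4288, 3440.5 and 3348, and mitochondrial genes took a median of 4.22% to 4.66% of counts. Depth thus ranged widely within every clone.

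To set cells side by side at equal depth, 5600 counts were drawn at random from each cell without replacement. Another 17 cells had fewer and were left out (6, 4, 2 and 5 of clones 1 to 4), which left 164 cells (40, 41, 44 and 39). At this depth clone 1 had a median of 2212 genes per cell, clone 2 of 2473, clone 3 of 2036 and clone 4 of 2063. The mean of the 4 medians was 2196 ± 200 (SD, n = 4 clones). Single cells ranged from 970 to 2859 genes and the clones overlapped. Even after the drawing, cells with more counts to draw from tended to show more genes (r with log2 total 0.12 to 0.53 in the clones), and the part of library quality in differences between cells was not tested.

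**Figure D1:**
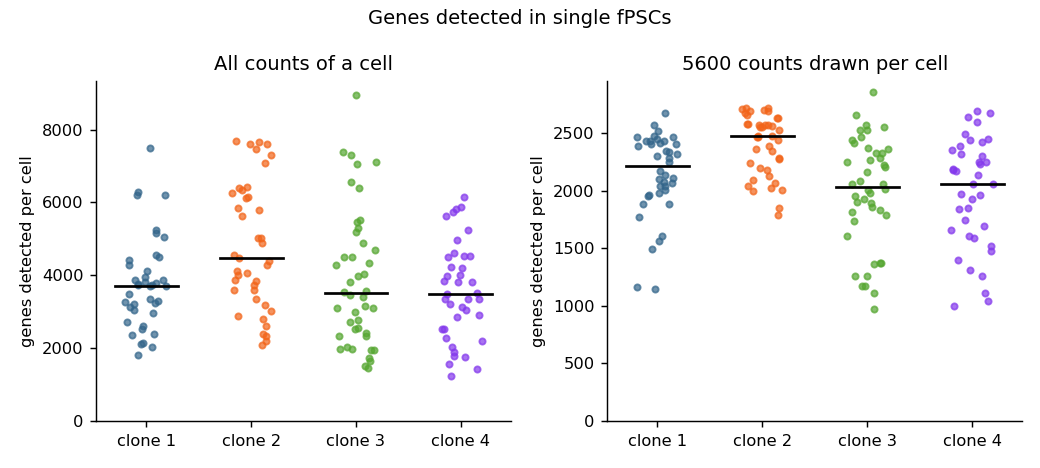
Genes detected in each of 164 single fPSCs (points) by clone, from all counts of the cell (left) and from 5600 counts drawn per cell (right). Horizontal bars are clone medians. At equal depth the medians lie between 2036 and 2473 genes and the clones overlap.

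The 3 genes that mark the formative state were found in these cells. Dnmt3b, a de novo DNA methyltransferase raised on exit from the naive state (NCBIM37 chr2:153475186-153513466), had counts in 180 of 181 cells (99.4%). At 5600 counts per cell its median was 9, 11, 10 and 10 counts in clones 1 to 4, its highest value 58 in a cell of clone 3, and its mean over clones 11.01 ± 1.49 (SD, n = 4). Fgf5, a growth factor of the post-implantation epiblast (chr5:98683203-98706049), had counts in 137 of 181 cells (75.7%), 67.4% to 84.8% by clone, and a mean of 1.54 ± 0.198 counts. Otx2, a homeobox factor of the formative programme (chr14:49277354-49287319), had counts in 121 of 181 cells (66.9%), 58.7% to 75.6% by clone, and a mean of 1.04 ± 0.200 counts. All 3 had counts in 98 cells (54.1%), at least 2 in 160 (88.4%) and none in 1 cell. Dnmt3b was thus seen in nearly every cell, whereas Fgf5 and Otx2 were missed in a part of the cells of every clone. None of the 3 was called variable: their mean excess over genes of similar mean was -0.11, 0.31 and -0.06 on the log2 scale, with values on both sides of 0 among the clones.

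Among the core pluripotency genes, Sall4, a zinc finger factor, had counts in 156 of 181 cells, Nanog, a homeobox factor, in 111 and Tdgf1, a co-receptor of Nodal, in 139. Pou5f1, the central factor of pluripotency (chr17:35642982-35647721), had counts in only 17 of 181 cells (9.39%), at most 19.6% of the cells of a clone, although 7 bulk libraries of fPSCs, of several passages and parent lines, held 691 ± 237 FPKM (SD; lowest 462, median 577, highest 1025). Sox2, its partner, had counts in 25 cells (13.8%) at 30.7 ± 7.23 FPKM in bulk. Pou5f1 has near-identical processed pseudogenes, with which its reads could be shared, so its counts are uncertain. Low detection was not particular to Pou5f1. Zic2, Foxd3 and Pou3f1 had counts in 36, 38 and 43 of 181 cells at 85.1, 32.8 and 29.9 FPKM in bulk. Rif1, by contrast, had counts in 160 cells at 15.7 FPKM, and the reason for these differences was not tested.

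Markers of other cell types were also summed. Over the genes of a list present in both tables, naive markers took 0.302 to 1.11 counts per 10000 in the clones, endoderm markers 1.27 to 2.33, neural markers 1.09 to 1.69, germ-cell markers 0.107 to 0.765, fibroblast markers 1.84 to 6.04 and markers of blood, liver and muscle 0.103 to 0.855. Primitive streak genes took 4.13 to 5.80. Their leading member was Lefty1, an inhibitor of Nodal, seen in 103 of 182 cells, and Eomes, a T-box factor of mesendoderm, was seen in 74. Nodal was seen in 68 cells and Fgf8 in 62, whereas T was seen in 16 and Mixl1 in 7. Of the 24 primitive streak genes listed, 13 are in both tables and 7 in neither, among them Gsc, Mesp1 and Tbx6. Of 21 genes of the 2-cell-like state 20 are in neither table, and the one present, Eif1a, is also a general translation factor.

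Cell-cycle genes were compared in 2 lists that are standard for scoring phase, with 49 G2/M and 41 G1/S genes passing a filter (a mean of at least 0.2 counts, and counts in at least 2 cells of every clone). In all 5168 genes passed. In addition, 27 other mitotic genes and 30 other genes of S phase, which the lists do not hold, were used. Of the 49 G2/M genes summed, a cell held a median of 54.5, 61, 55 and 50 of its 5600 counts in clones 1 to 4, with 26 to 89 in single cells. The 41 G1/S genes took a median of 46.5, 47, 47 and 45 counts, from 22 to 100 in single cells. The ranges of the 4 clones overlapped for both lists. The variance of the sum was 2.45 to 3.71 times its mean for G2/M genes and 2.14 to 4.16 times for G1/S genes, where independent counting alone gives a ratio of 1. It was 1.74 to 4.07 times for other mitotic and 1.58 to 3.18 times for other S-phase genes. Lists outside the cycle were not compared in this way. Whether such ratios are particular to cycle genes was thus not tested.

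G2/M genes varied together more than all genes did, in every clone. Pearson's r of log2(count + 1) across the cells of a clone, averaged over all pairs of G2/M genes, was 0.0270, 0.0149, 0.0341 and 0.0198 in clones 1 to 4. Pairs of all 5168 genes gave 0.0065, 0.0022, 0.0103 and 0.0088. G2/M pairs thus lay above all pairs in 4 of 4 clones, by 0.0170 ± 0.0061 (SD, n = 4). Mean level has a part in this, since counting noise lowers r more for scarce genes. Among genes with a mean count of 1 or more, the means over clones were 0.0225 for G2/M and 0.0136 for all pairs. The difference was smaller there, at 0.0089. The values are small, cells of a clone share libraries of unequal quality, and 4 clones cannot pass a two-sided exact sign permutation test (the smallest p it allows is 0.125), so they are given as a description. The 27 other mitotic genes, paired with the G2/M genes, gave 0.0174, 0.0171, 0.0289 and 0.0292, close to pairs within the G2/M list and above all pairs in every clone. Pairs within the 27 gave 0.0010, 0.0156, 0.0302 and 0.0393, above all pairs in 3 of 4 clones and below them in clone 1.

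G1/S genes stood apart less when all tested genes were used. Their pairs gave 0.0097, 0.0080, 0.0128 and 0.0115, above all pairs in 4 of 4 clones but by only 0.0036 ± 0.0016. At 11900, 20000 and 40000 counts they lay above all pairs in 3, 3 and 4 of 4 clones. Among genes with a mean count of 1 or more, G1/S pairs gave 0.0282 ± 0.0266 (SD over clones) beside 0.0136 for all pairs. With that spread, the order of the 2 lists depended on the filter. Pairs of a G2/M with a G1/S gene gave 0.0070, -0.0002, 0.0026 and 0.0001, above all pairs in 1 clone only. At 11900, 20000 and 40000 counts such pairs lay above all pairs in 2, 3 and 1 of 4 clones, with means of 0.0152, 0.0280 and 0.0332 beside 0.0166, 0.0263 and 0.0363 for all pairs. Summed over the lists, G2/M and other mitotic counts of a cell correlated with r of 0.13, 0.16, 0.14 and 0.43 in clones 1 to 4. G2/M and G1/S sums correlated negatively in every clone, with r of -0.28, -0.21, -0.33 and -0.11. Sums of G1/S and other S-phase genes gave 0.08, -0.02, -0.08 and -0.03. The sum of 12 housekeeping genes, which belong to neither programme, gave r of 0.48, 0.28, 0.40 and -0.24 with the G2/M sum. With the G1/S sum it gave -0.45, 0.03, -0.39 and 0.12. Its means over clones with the G1/S sum were -0.29, -0.25 and -0.24 at 11900, 20000 and 40000 counts. A negative r with the G1/S sum was thus also seen, in some clones, for genes of neither programme. G2/M with G1/S sums gave -0.30, -0.15, -0.33 and -0.28 at 11900 counts, -0.13, 0.03, -0.25 and -0.05 at 20000, and -0.30, -0.09, -0.23 and -0.31 at 40000, negative in all clones but clone 2 at 20000. G2/M with other mitotic sums gave 0.54, 0.05, -0.03 and 0.52 at 11900 counts, 0.36, 0.004, -0.03 and 0.66 at 20000, and 0.68, 0.36, -0.04 and 0.72 at 40000, with clone 3 near 0 throughout. They are over 39 to 44 cells a clone at 5600 counts, which share depth, and at a fixed total 1 sum can only be higher where others are lower.

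Pairwise r was larger at greater depth, for G2/M pairs and for all pairs. In cells with 20000 or more counts, drawn down to 20000 (106 cells), G2/M pairs gave 0.0571, 0.0187, 0.0988 and 0.0592, and all pairs 0.0252, 0.0149, 0.0361 and 0.0288. At 40000 counts (69 cells, 10 of them of clone 1) the means over clones were 0.0803 for G2/M pairs, 0.0443 for G1/S pairs and 0.0363 for all pairs. G2/M pairs lay above all pairs in 4 of 4 clones at each of 5600, 11900, 20000 and 40000 counts. Clone 2 had the smallest difference at 20000 (0.0038). The 2 larger depths were added after the first results were seen.

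**Figure D2:**
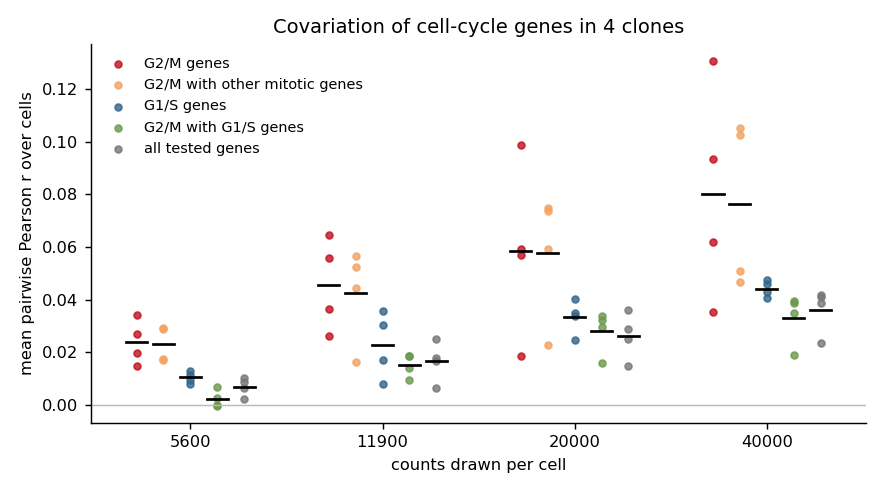
Mean Pearson r over all pairs of genes across the cells of a clone (points, 1 per clone; bars, means of 4 clones), for cell-cycle lists and all tested genes at 4 depths. G2/M pairs, and G2/M genes paired with other mitotic genes, lie above all pairs in every clone at every depth, while G1/S pairs lie close to all pairs.

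Single G2/M genes were then compared with a score, the mean standardised level of the other G2/M genes. A gene was said to follow the score when its r was above 0 in all 4 clones with a mean of at least 0.2. This held for 153 of 5168 genes (2.96%), for 6 of 49 G2/M genes and for 4 of 27 other mitotic genes. The 6 were Smc4, a condensin subunit, Top2a, topoisomerase of chromosome segregation, Cdca8 and Aurkb of the chromosomal passenger complex, Kif23, a kinesin of the midzone, and Cenpe, a kinetochore kinesin. The 4 were Ccnb1, the cyclin of mitotic entry, Incenp, scaffold of the passenger complex, and the kinesins Kif4 and Kif18a.

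Smc4 was seen in 139 of 164 cells with a mean of 2.97 counts, and gave r of 0.21, 0.19, 0.32 and 0.46. Top2a, seen in 134 cells with a mean of 2.85, gave 0.38, 0.21, 0.18 and 0.31. Both were thus positive in every clone, with overlapping values. Ccnb1, seen in 117 cells, gave 0.37, 0.05, 0.29 and 0.39, with clone 2 near 0. Kif4, seen in 27 cells only, gave 0.20, 0.21, 0.21 and 0.27, the narrowest range of these genes.

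Kif20b, a kinesin of cytokinesis, and Aurka, a spindle-pole kinase, had means of 0.27 and 0.24 but did not meet the rule, since Kif20b was at -0.06 in clone 2 and Aurka at -0.09 in clone 4. Cenpf and Cdca2 were positive in all clones with means of 0.1987 and 0.1983, just under 0.2. The 3 lowest members were G2e3, Ctcf and Ccnb2, with means of -0.02, -0.04 and -0.14. Ccnb2 is the second cyclin of mitosis, and gave -0.34, -0.03, -0.22 and 0.06 at 5600 counts but a mean of 0.25 at 20000. At 11900 counts 16 of 49 G2/M genes followed the score, beside 8.64% of all genes. At 20000 counts 20 of 49 G2/M genes and 9 of 27 other mitotic genes followed the score, beside 16.3% of all genes, and Ccnb1 had a mean r of 0.42 and Cdca8 of 0.39. At 40000 it was 20 of 49, beside 18.8%.

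**Figure D3:**
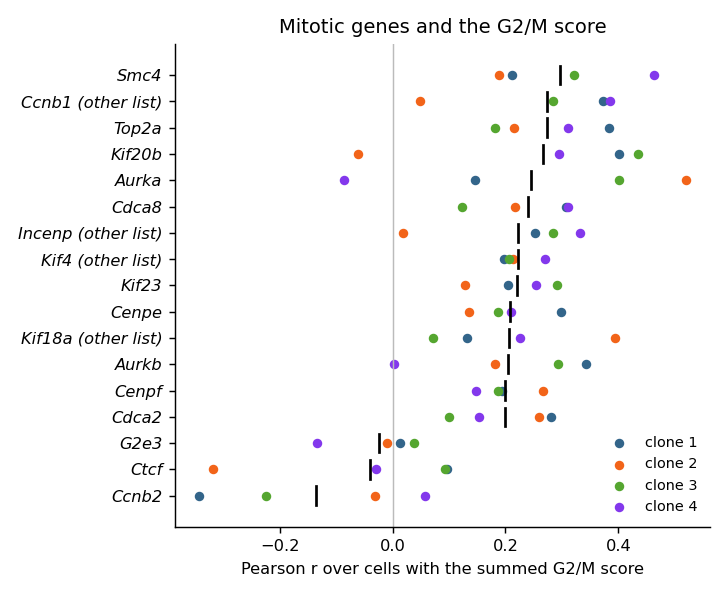
Pearson r of single mitotic genes with the score of the other G2/M genes across the cells of each clone at 5600 counts per cell (points, clones; bars, means). Genes marked as other list are not part of the score. Smc4, Top2a and Kif4 are positive in all clones, and Ccnb2 is the lowest.

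Genes outside the cycle lists also followed the G2/M score. The 10 with the highest lowest-clone r were Pfn1, an actin-binding protein (0.33 to 0.39), Rpl27, a ribosomal protein (0.25 to 0.51), Higd2a, Odf2, H3f3b, which encodes histone H3.3, Atp5a1 of the ATP synthase, Dpy30, Zic5, Cyb5a and Rpn2. Odf2 is a centriole component, and Zic5 is in the formative list, with r of 0.34, 0.25, 0.20 and 0.24. Otx2 gave 0.33, 0.16, 0.02 and 0.28, a mean of 0.1999. Ppia, Bax, Etv5 and Lss met the rule too, with means of 0.26, 0.21, 0.21 and 0.20.

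A choice of followers made in one table was then looked at in the other. The 50 with the highest lower r in clones 1 and 2 had a median r of 0.0885 in clones 3 and 4, where all genes had 0.0563, and 27 of 50 were positive in both clones beside 41.2% of all genes. The 50 chosen in clones 3 and 4 had a median of 0.0268 in clones 1 and 2, below the 0.0378 of all genes, and 16 of 50 were positive in both beside 35.1%. The choice thus gave a higher r in one direction and not in the other. Of the 143 followers outside the 4 cycle lists, 111 had a promoter in the table used below, and 14.4% of these held the motif of mitotic promoters, beside 16.6% of all tested genes with a promoter.

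The G1/S score was followed by 85 of 5168 genes (1.64%) and by 2 of 41 members. These were Rrm2, a subunit of ribonucleotide reductase, with r of 0.35, 0.51, 0.15 and 0.02, and Ubr7 with 0.31, 0.23, 0.09 and 0.30. Further down, Pold3 and Pola1, of replicative polymerases, had means of 0.17, Dtl, which targets the licensing factor Cdt1, of 0.16 and Hells, a chromatin remodeller, of 0.16. The lowest were Slbp, which binds histone mRNA, Dscc1 and Cenpu, at -0.11, -0.08 and -0.08. Of the 30 other S-phase genes, 0, 2, 8 and 9 followed the score at 5600, 11900, 20000 and 40000 counts. At 11900, 20000 and 40000 counts 6, 11 and 13 of 41 G1/S genes followed it, beside 6.87%, 14.6% and 20.5% of all genes. Outside the lists, Sall4 gave 0.20, 0.21, 0.36 and 0.21. Of the G2/M list, Hmgb2 also met the rule for the G1/S score.

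Promoters of the mitotic genes shared letters that the choice of genes did not use. RefSeq promoters (GRCm38.p6, 250 bases before to 50 after a start site) were searched on both strands. CHR, an element found in many mitotic promoters, was searched as TTTGAA and, in its other form, as TTCGAA. The site of E2F factors, which act at the G1/S boundary, was searched in the form TTTCCCGC and in the second form TTTGGCGC. CCAAT was searched by its own letters and TATA as TATAAA, and none of these strings holds another. A CHR match was found for 35 of 44 G2/M genes with a promoter (79.5%) and 9 of 21 other mitotic genes (42.9%), beside 16.6% of 3993 tested genes. For G1/S genes it was 5 of 29 (17.2%). An E2F match was found for 10 of 29 G1/S genes (34.5%) and 9 of 25 other S-phase genes (36%), beside 4.76% of tested genes and 2 of 44 G2/M genes. CCAAT was found for 79.5% of G2/M and 69.0% of G1/S genes, beside 43.1%, and TATA for 4.55% and 10.3%, beside 7.96%. Where a gene has several promoters listed, a match in any counted.

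The promoters below are those of the 3 mitotic genes with the highest r with the G2/M score that hold a CHR match, printed 5′ to 3′ on the strand of the gene with CHR and CCAAT letters in capitals. They are Top2a at chr11:99024140-99024439 (minus strand), Kif20b at chr19:34922108-34922407 (plus) and Aurka at chr2:172370521-172370820 (minus).
Top2a: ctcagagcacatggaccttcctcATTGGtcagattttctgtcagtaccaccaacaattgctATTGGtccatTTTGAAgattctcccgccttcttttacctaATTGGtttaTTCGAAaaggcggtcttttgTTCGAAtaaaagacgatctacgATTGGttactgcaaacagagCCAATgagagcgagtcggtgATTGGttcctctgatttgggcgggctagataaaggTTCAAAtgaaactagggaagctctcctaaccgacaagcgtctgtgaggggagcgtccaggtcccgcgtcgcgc
Kif20b: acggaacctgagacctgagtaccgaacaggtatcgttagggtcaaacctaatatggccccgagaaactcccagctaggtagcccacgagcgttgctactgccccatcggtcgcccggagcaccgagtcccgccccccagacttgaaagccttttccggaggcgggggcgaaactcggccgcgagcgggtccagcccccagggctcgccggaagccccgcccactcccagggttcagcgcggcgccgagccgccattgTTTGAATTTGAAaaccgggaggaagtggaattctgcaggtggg
Aurka: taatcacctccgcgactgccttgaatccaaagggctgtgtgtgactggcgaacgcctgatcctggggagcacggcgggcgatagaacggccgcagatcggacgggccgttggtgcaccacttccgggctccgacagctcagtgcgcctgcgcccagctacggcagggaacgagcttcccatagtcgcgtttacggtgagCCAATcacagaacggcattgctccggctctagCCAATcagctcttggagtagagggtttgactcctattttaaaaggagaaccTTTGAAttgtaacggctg
The Top2a promoter holds 4 CHR and 6 CCAAT matches, the nearest CHR starting 23 bases before the start site. Kif20b holds 2 adjacent CHR matches just after the start site and no CCAAT. Aurka holds 1 CHR match after and 2 CCAAT matches before the start site.

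Some groups outside the cell cycle had a higher mean pairwise r. The 12 measured genes of a hypoxia and glycolysis list, most of them enzymes of glycolysis, gave pairwise r of 0.0095, 0.0024, 0.1194 and 0.0473 at 5600 counts and 0.1123, 0.1035, 0.2555 and 0.1218 at 20000. Counting noise weighs less on abundant genes, so pairs of the 1084 genes with a mean of 1 or more are the nearer background, at 0.0139, 0.0044, 0.0217 and 0.0142 at 5600 counts and a mean over clones of 0.0374 at 20000. At 5600 counts the list thus lay below this background in clones 1 and 2 and above it in clones 3 and 4. G2/M pairs stood at 0.0585 there. Ldha, which makes lactate, had the highest r with the rest of the list at 20000 counts (0.47, 0.44, 0.74 and 0.45), followed by Pkm (pyruvate kinase; mean 0.43), Eno1 (enolase; 0.39) and Tpi1 (triose phosphate isomerase; 0.39). The glycolysis sum also went with the number of genes detected in the cell (r 0.15 to 0.62) and against the mitochondrial share of counts (-0.31 to -0.45), whose part was not tested.

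The 8 measured genes of the mitochondrial genome had the highest mean pairwise r of the lists run at 5600 counts, with 0.21, 0.17, 0.40 and 0.11 in the clones. Their sum went against log2 total (r -0.30 to -0.67) and genes detected (-0.53 to -0.69). Mitochondrial genes paired with G2/M genes gave -0.022, -0.041, -0.009 and -0.011. The 9 measured genes of amino acid supply and endoplasmic reticulum stress gave a mean of 0.039 at 5600 counts (lowest clone -0.015) and 0.135 at 20000. The 11 core pluripotency genes gave 0.055, 0.021, 0.052 and 0.076, and the 17 formative genes 0.035, 0.014, 0.027 and 0.056. Formative genes therefore lay above all pairs in every clone at 5600 counts, but in 2 of 4 clones at 40000.

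Variable genes were those whose squared coefficient of variation exceeded that of genes of similar mean, a running median over 200 genes, by at least 0.5 on the log2 scale in every clone. This held for 45 of 5168 genes (0.871%). The value called excess is this log2 ratio. At the ends of the range of means, a gene was compared with the 200 lowest or the 200 highest genes. The squared coefficient of variation falls as the mean rises. Excess is therefore raised for genes of the lowest means and lowered for those of the highest. The genes just inside the limit were Twsg1 and Magi3 (lowest-clone excess 0.53 and 0.52), and those just outside Gbas and Apela (0.49 and 0.49). No G2/M gene of 49, no other mitotic gene of 27 and no formative gene of 17 was variable. At 11900, 20000 and 40000 counts 1.13%, 1.19% and 1.16% of genes were variable, with 0, 0 and 1 of 49 G2/M genes.

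Syn1, synapsin of neuronal vesicles (chrX:20437637-20498130), had counts in 28 of 164 cells, with up to 36, 17, 15 and 24 of 5600 counts in a cell of clones 1 to 4. Its excess was 3.17, 2.97, 2.21 and 2.91, and 0.60 in the lowest clone without each clone's highest cell. Syn1 overlaps 2 other coding genes, so its counts are uncertain. Pkd1l2, a polycystin family member (chr8:119519579-119606349), was seen in 33 cells with a mean of 9.91 counts where seen, and had excess of 2.16, 2.83, 2.67 and 2.78. Gfod2 was seen in 40 cells and had the most even excess, 2.16, 2.21, 2.15 and 2.14. These 3 genes were high in some cells of every clone and at 0 in the rest.

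1700120C14Rik was seen in 51 cells (excess 2.11 to 3.42). Tex15 and Tex14, both known from meiosis and the germ line, were seen in 53 and 30 cells, with lowest-clone excess of 2.05 and 1.52. Cblc (18 cells), Lca5l (60), Plxdc1 (17), Bbof1 (24), Pdgfrl (61), Gm37760 (26) and Prkce (13) had lowest-clone excess between 1.27 and 1.96. Macf1, which links actin and microtubules (75 cells), and Vps4a, an ATPase of membrane scission that also acts in cytokinesis (58 cells), had 1.10 and 1.02. Loxl1, a collagen cross-linking enzyme, was the 1 variable gene of 3 tested fibroblast markers (22 listed), beside 0.871% of all genes. A single call is not a result about that list, of which Loxl1 also had the most counts. It had counts in 19 cells and up to 45 of 5600 in a cell of clone 1 but never over 1 in clone 2. Counts never over 1 have the smallest spread that their mean allows. The excess of Loxl1 in clone 2 thus follows from a comparison with genes of higher mean. It does not show that Loxl1 varied more there than genes of similar mean. How far calls of other genes with few counts in a clone rest on such a comparison was not tested. Dqx1, A230083G16Rik, Pcx, Mtdh, Robo1, Nlrp12, Aaed1 and Nek1 had lowest-clone excess of 0.70 to 0.99 and, with Ccne2, complete the 25.

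**Figure D4:**
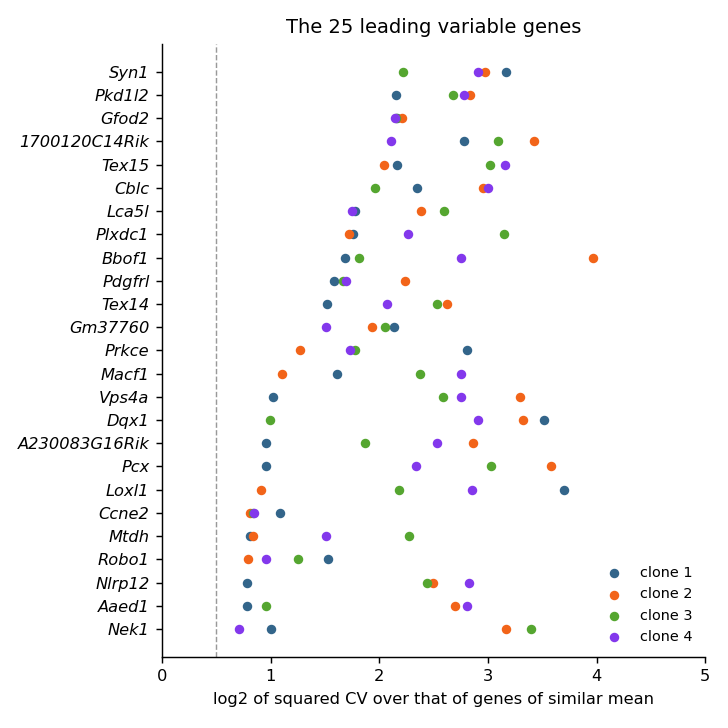
Excess of the 25 leading variable genes by clone (points): log2 of the squared coefficient of variation at 5600 counts per cell over the running median of genes of similar mean. The dashed line is the limit of 0.5, which every point passes because the genes were chosen by it. Gfod2 and Ccne2 have narrow ranges.

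Ccne2 was the 1 variable gene of 41 G1/S genes (2.44%), beside 0.871% of all genes, and a single call is not a result about the list. At 40000 counts 1 G2/M gene was variable as well. Ccne2 encodes cyclin E2, which drives entry into S phase (chr4:11118498-11131926, overlapping 1 other coding gene). It was seen in 23, 26, 18 and 14 cells of clones 1 to 4 (81 of 164), with mean counts of 1.78, 1.44, 1.32 and 1.13 and highest values of 11, 10, 11 and 12. Its excess was 1.09, 0.81, 0.83 and 0.85, with all clones close together. Without the highest cell of each clone its lowest excess was 0.36, under the limit. Rrm2 came near with 0.58, 0.43, 0.51 and 0.74. Ccne2 did not follow the other G1/S genes (mean r 0.05). Its bulk level was 10.1 ± 5.97 FPKM (SD, n = 7 libraries). These libraries fall into 2 runs of sample numbers, called deposits here, which the labels do not name. The deposits hold different passages, and the second adds other parent lines, so these cannot be told apart from the deposit. The spread of Ccne2 lay between the 2 deposits: the SD of log2(FPKM + 1) was 0.92 over all 7 libraries and 0.08 and 0.12 within the deposits.

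Few variable genes were broadly expressed. Only 3 of 45 had counts in at least 50% of cells: Mtdh (141 cells), Gnl3 (145) and Gm20388 (153). Gnl3, a nucleolar GTPase of proliferating stem cells (nucleostemin), had means of 3.15, 2.80, 3.95 and 4.97 counts, highest values of 17, 11, 19 and 19, and excess of 0.58, 0.70, 0.58 and 0.61. Without the highest cell its lowest excess was 0.06. Gm20388 is annotated over 4434.9 kb of chromosome 8 and overlaps 74 other protein-coding genes, so its counts are uncertain. The median variable gene was seen in 14.02% of cells, the median tested gene in 27.4%. A choice by high spread at a given mean favours genes whose counts lie in few cells, so this difference follows in part from the rule. Nfe2l2, the regulator of the oxidative stress response (53 cells), was also variable, with 2.28, 0.82, 2.35 and 0.54.

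The variable genes as a group had a pairwise r near that of all genes. It was 0.0083, 0.0020, -0.0006 and 0.0101 in clones 1 to 4, above all pairs in 2 of 4 clones, and at 20000 counts below all pairs in 4 of 4 (mean 0.0093 beside 0.0263). Their median r with log2 total was -0.01, beside 0.03 for all genes. Without the highest cell of each clone, 23 of the 45 still passed. With another random draw of 5600 counts 28 of the 45 were called again, and at 40000 counts 8, so membership in this group depended on the draw and the depth.

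Excess was then compared between tables. Of the 100 genes with the highest lower excess in clones 1 and 2, 59% lay above the trend in both clones 3 and 4, beside 25.6% of all genes. Of the 100 chosen in clones 3 and 4, 49% lay above it in both clones 1 and 2, beside 25%. Over all 4 clones 8.61% of genes lay above the trend throughout. The median excess was -0.31 for housekeeping, -0.30 for heat shock and -0.84 for mitochondrially encoded genes, beside 0.03 for all genes. Below the trend in all 4 clones lay 3 of 12, 4 of 8 and 5 of 8 of these, beside 487 of 5168 genes. Most of the mitochondrial genes were among the most abundant and were compared with genes of lower mean. Their low excess thus follows in part from the rule and does not show that they vary less than genes of similar mean.

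Many of the variable genes were barely expressed in bulk. In the 7 bulk libraries 12 of the 39 variable genes listed there (30.8%) had a mean under 1 FPKM, beside 125 of 4968 tested genes (2.52%). Among those with an excess of at least 1 in every clone it was 7 of 13 (53.8%). The filter on the mean and the rule on spread both favour genes with high counts in few cells. Tested genes of equal detection were not compared, so how far these shares follow from the choice was not tested. Pkd1l2 stood at 0.00227 FPKM, Tex14 at 0.00885, Plxdc1 at 0.0153, Lca5l at 0.0724, Bbof1 at 0.115 and Tex15 at 0.193, whereas Vps4a stood at 13.3, Pdgfrl at 9.26 and Gfod2 at 4.12. The median was 2.21 FPKM for variable genes and 21.8 for tested genes. Bulk and single-cell levels of 4968 genes correlated with r of 0.60 on log scales, a correlation across genes, which are not independent replicates. The bulk libraries came from other cultures, and reads of the single cells were primed at poly(A), whose part was not tested. This comparison was chosen after the values were seen.

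**Figure D5:**
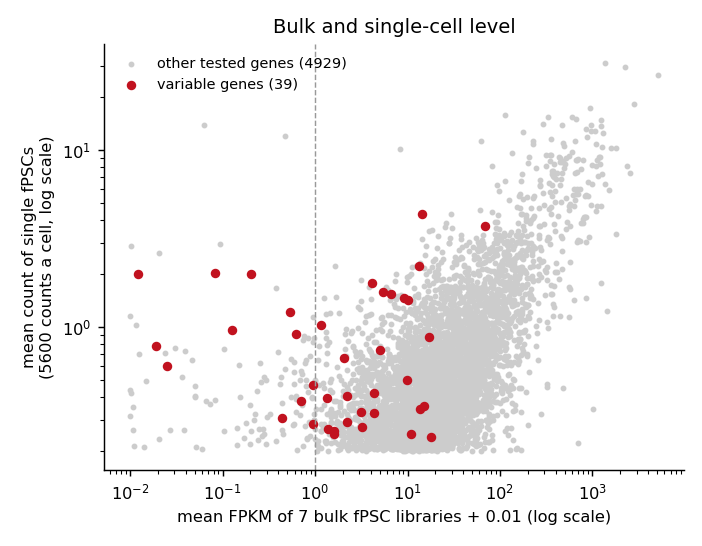
Mean FPKM of 7 bulk fPSC libraries, with 0.01 added (horizontal, log scale), against the mean count of single fPSCs at 5600 counts per cell (vertical, log scale) for 4968 tested genes. The dashed line marks 1 FPKM. Of the 39 variable genes (red), 12 lie under 1 FPKM.

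Spread between cultures was compared on the same genes. The median SD of log2(FPKM + 1) over the 7 libraries was 0.24 for them and 0.32 for tested genes. Within the 3 libraries of the first deposit it was 0.10 beside 0.14, and within the 4 of the second 0.19 beside 0.16. With a pseudocount of 0.1 over all 7 it was 0.43 beside 0.34, so the order turned with the pseudocount.

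Bulk chromatin of fPSCs at passage 10 was read at the promoters. Within 1000 bp of the start site on NCBIM37 (mm9), H3K4me3, a mark of active promoters, had a median of 3.61 RPKM over 36 variable genes and 5.91 over 4751 tested genes. H3K27me3, the mark of Polycomb repression, had a median of 0.337 RPKM beside 0.129. The methylated fraction of cytosines had a median of 0.211 beside 0.154. Pkd1l2 had 0.248 RPKM of H3K4me3 and a methylated fraction of 0.956, and Plxdc1 had 2.19 RPKM of H3K27me3, whereas Ccne2 had 4.35, 0.032 and 0.0194 for the 3 marks. The labels give 2 replicates for each mark, which the files used here do not tell apart, and the coverage behind the fraction is unknown, so no test was made. The variable genes were also lower in bulk RNA, whose part in these medians was not tested.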

How the data were processed

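The gene lists and members were chosen with earlier results of these data known. For single cells the authors deposited whole-number counts, and Drop-seq_tools is named for this step. For bulk RNA the authors deposited FPKM (TopHat2 2.1.1 and Cufflinks 2.1.1), for ChIP-seq RPKM in bins of 100 bp (Bowtie2 2.2.2) and for MethylC-seq the methylated fraction in windows of 100 bp, all on mm9.

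Each kept cell was thinned to 5600 counts, the 10th percentile of totals rounded down. Genes needed a mean thinned count of 0.2 and counts in 2 cells of every clone. Correlations used log2(count + 1) within a clone, and a list's score left out the gene itself. No doublet caller was run, since cells were picked by hand. The replicate is the clone, ± is the SD over clones, and no count model was fitted, since no groups were compared. The study calls the clones independent. Shares of cells carry counting error, which is not given here.

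Named genes were the 3 markers, the 10 highest and 3 lowest members of each cycle list by mean r, the 10 genes in neither list with the highest lowest-clone r, the 25 variable genes with the highest lowest-clone excess, and up to 6 called members of every other list. Other genes were chosen after their values were seen. In FPKM, 4 entries with repeated names were left out. On simulated counts of 5056 genes, 14% of genes with small and 59.1% with large added spread were called variable, as were 0% of unchanged genes. Every unchanged gene was given the same cell-to-cell spread there, so the 0% does not give the rate of false calls in these data. Alternatives were other depths, another seed, filters, Spearman's correlation, regression on depth and leaving out each clone. Python 3.11.15, numpy 2.4.6, pandas 2.3.3 and scipy 1.17.1 were used.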

Additional observations from a re-analysis of the deposited data

Results flagged for a closer look

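Of 25 values compared over the 4 clones, 1 stood apart by its gap to the others: the median summed count of the 30 other S-phase genes was 24 of 5600 in clone 2 and 23 in each of the other clones. Chance alone flags about 1 in 20 such groups. The gap is a single count.

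Of 22 markers of other cell types that only 1 of the tables lists, and that were outside the comparisons for that reason, 7 had more than 3 counts there. Their counts, over all cells of that table, were 24 for Klf2 (naive state), 26 for Lhx1 (primitive streak), 97 for Foxa1 and 8 for Pdgfra (endoderm), 16 for Dcx (neural), 56 for Thy1 (fibroblasts) and 108 for Hbb-bt (a globin chain of red blood cells).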

How the results depend on the processing

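Of 126 alternative values 17 could not move, since 2 settings (cells with 1000 or more genes, and leaving out the repeated column name) only removed cells already below 5600 counts. Of the other 109, 55 stayed within the spread over clones or within 1.5 times the count reported and 54 moved. G2/M pairs had a higher mean r than all pairs in 14 of 14 settings, the reported one included (by 0.00894 to 0.0440), and G1/S pairs in 14 of 14 (by 0.00107 to 0.0147). Without thinning, mean r was 0.0680 for G2/M, 0.0472 for G1/S and 0.0345 for G2/M with G1/S pairs. Then 1234 and 1021 genes followed the G2/M and G1/S scores, 92 were variable, 70% of variable genes chosen in one table lay above the trend in the other (54% in the report's setting, mean of both directions), the followers' median r there was 0.204 (0.0576) and 3625 genes were detected. At 11900 counts the values were 0.0458, 0.0228 and 0.0152, with 444 and 353 followers and 3070 genes. At 20000 and 40000 counts, both added after seeing the data, G2/M pairs gave 0.0585 and 0.0803, G1/S pairs 0.0335 and 0.0443, mixed pairs 0.0280 and 0.0332, G2/M followers 838 and 941, G1/S followers 752 and 1026, and the followers' median r as above 0.139 and 0.157. With a mean count of at least 1, G1/S pairs gave 0.0282, mixed pairs -0.00176, followers 61 and 18, and variable genes 19. Spearman's correlation gave 0.0163, 0.00806, 284 and 149 for these first 4. Another seed gave 0.00791 for G1/S pairs. Regression on depth gave 0.0189 for G1/S pairs and 85 G2/M followers. Of the 45 variable genes, 28 were also called with another seed and 8 at 40000 counts. Leaving out 1 clone, whichever it was, gave 0.0203 to 0.0270 for G2/M, 0.00974 to 0.0108 for G1/S and 0.000841 to 0.00336 for mixed pairs, 235 to 354 and 133 to 210 followers, 97 to 122 variable genes and 2104 to 2249 genes detected. Fewer clones have to pass a limit there. Within 5000 bp, variable genes had 1.65 RPKM of H3K4me3 and a methylated fraction of 0.667, and their bulk SD within the first deposit was 0.101. No paired analysis was possible because the clones are replicates of 1 condition. Greater depth left fewer cells (136, 106 and 69 at 11900, 20000 and 40000 counts).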
